A study of Mus musculus with 2 samples.

Results

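U90926 is a mouse transcript of chromosome 5, and its row in a count table of 19674 genes is described here. It was chosen by its symbol, as 1 gene of 19674, because of the ratio between the libraries, so its counts, ratio and rank are a description and carry no test. The data come from bulk RNA sequencing of a fibroblast cell line from mouse skin, wild type, which the labels call MDFB. 1 library came from cells given vehicle and 1 from cells given IL-17A, an inflammatory cytokine that acts on fibroblasts through a receptor made of Il17ra and Il17rc. The labels give no dose, no length of treatment and no age, and both libraries carry the same batch label. Per the labels' protocols the libraries were made with a stranded preparation for messenger RNA. They held 24427027 counts for vehicle and 23559416 counts for IL-17A.

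Long noncoding RNAs are transcripts that are processed like messenger RNAs but are not known to act through a protein, and many are made only in some cells or after a stimulus. U90926 is known as a transcript that activated macrophages make after Toll-like receptor ligands, and in preadipocyte cultures it has been described as a restraint on adipocyte differentiation. A secreted protein has also been described from its open reading frame. The annotations differ on this point. RefSeq types U90926 as a long noncoding RNA, at chr5:92209895-92215408 on the minus strand of GRCm38.p6, the assembly also called mm10. GENCODE M21 types the same gene as protein-coding and lists 3 transcripts. The longest coding stretch, in a transcript of 6 exons and 520 bases, is 354 bases or 118 codons, and this model holds a gap of 1 base between neighbouring exons. The second coding model has 5 exons, 524 bases and 87 codons, and the remaining transcript is a retained intron with no coding stretch. The counts cannot show whether the RNA is translated, so it is called U90926 below.

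RefSeq also places Gm42113, a long noncoding RNA at chr5:92209484-92212752, across part of U90926. GENCODE M21 lists no other gene there. Gm42113 was not matched to a row of the count table, and with no strand setting given in the sources used here, reads from the shared stretch could not be told apart.

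The 250 bases before the annotated start are shown for U90926, for Mmp10, the gene nearest to it in ratio, and for Cxcl10 and Cxcl2, chemokine genes of the same chromosome that exceeded 2-fold with IL-17A. They come from RefSeq on GRCm38.p6 and run 5′ to 3′ on the strand of each gene, at chr5:92215409-92215658 (minus strand) for U90926, chr9:7502092-7502341 (plus strand) for Mmp10, chr5:92348890-92349139 (minus strand) for Cxcl10 and chr5:90903649-90903898 (plus strand) for Cxcl2. Capitals mark matches to any of 6 motifs, searched on both strands.
U90926: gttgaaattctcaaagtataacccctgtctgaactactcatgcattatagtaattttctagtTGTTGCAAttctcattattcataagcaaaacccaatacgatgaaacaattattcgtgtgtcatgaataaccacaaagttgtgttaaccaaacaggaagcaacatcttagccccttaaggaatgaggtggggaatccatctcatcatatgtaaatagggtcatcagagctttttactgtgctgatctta
Mmp10: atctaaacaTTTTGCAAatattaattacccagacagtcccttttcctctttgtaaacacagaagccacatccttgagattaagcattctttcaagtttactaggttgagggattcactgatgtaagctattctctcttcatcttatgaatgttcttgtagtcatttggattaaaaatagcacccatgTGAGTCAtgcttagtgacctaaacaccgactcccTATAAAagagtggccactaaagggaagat
Cxcl10: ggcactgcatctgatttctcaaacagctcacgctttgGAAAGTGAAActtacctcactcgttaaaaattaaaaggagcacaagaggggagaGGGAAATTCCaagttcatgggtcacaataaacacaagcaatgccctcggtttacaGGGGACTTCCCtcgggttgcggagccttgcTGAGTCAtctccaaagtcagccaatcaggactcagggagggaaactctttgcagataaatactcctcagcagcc
Cxcl2: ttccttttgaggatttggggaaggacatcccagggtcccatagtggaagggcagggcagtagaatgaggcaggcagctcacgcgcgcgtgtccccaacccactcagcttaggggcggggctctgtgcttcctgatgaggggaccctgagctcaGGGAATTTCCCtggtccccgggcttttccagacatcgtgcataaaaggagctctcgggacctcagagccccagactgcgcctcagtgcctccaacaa

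The motifs were those named for NF-kB, for C/EBP (TTNNGCAA or TGNNGCAA), for AP-1 (TGANTCA), for STAT factors (TTCNNNGAA), the TATA box (TATAAA) and the interferon response element. They were chosen after the U90926 sequence had been seen. The U90926 window held 1 match, a C/EBP match (TGTTGCAA) from position -188 to position -181 relative to the start, and 18.1% of the 32851 RefSeq promoter windows of this length held a C/EBP match. The Mmp10 window also held a C/EBP match, with 1 AP-1 match and 1 TATA box. The Cxcl10 window held 3 NF-kB matches, 2 of them overlapping, with 1 AP-1 and 1 interferon response match. The Cxcl2 window held 2 overlapping NF-kB matches on opposite strands. The windows of Naaa and Parm1, neighbours past 2-fold, held none of the 6 motifs. NF-kB matches stood in 7.25% of all windows, AP-1 matches in 6.75%, STAT matches in 7.02%, TATA boxes in 12.4% and interferon response matches in 2.98%. The G and C content of the U90926 window was 36%, against a median of 52.4% over all windows, of which 6.24% were at or below it. Over the windows of measured genes the median was 60%, and 0.751% were at or below 36%. A match is a string of letters and not a bound site, and a missing match says only that these letters are absent from this window.

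U90926 was close to the limit of detection with vehicle and among the well expressed transcripts with IL-17A. It had 7 counts in the vehicle library, with an exact 95% Poisson interval of 2.81 to 14.4, and 3533 counts in the IL-17A library, with an interval of 3417 to 3651. After scaling for library size with TMM, a method that trims extreme genes, these were 0.280 and 153.5 CPM, that is, counts scaled to a common library size. The lower end of the vehicle interval lies under 3 counts, the floor used here for a count of 0. The IL-17A library was 549-fold higher, with a 95% Clopper-Pearson interval of 266 to 1365 made from the IL-17A share of the 3540 counts. On the log2 scale this is 9.10, with an interval of 8.06 to 10.42. Reads were counted without molecular identifiers, so all intervals cover counting error only, and with 1 library per group the difference had no replicate check. In bulk RNA, more cells that make U90926 and more U90926 per cell cannot be told apart.

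For comparison between genes, levels were divided by exon length from GENCODE M21, which gives CPM per kb. Over 800 exonic bases, U90926 stood at 0.350 CPM per kb with vehicle and 191.9 CPM per kb with IL-17A. Among the 13347 measured genes with an exon length it ranked 12842 from the top with vehicle and 221 with IL-17A. The medians over these genes were 6.18 and 6.31 CPM per kb, so U90926 was far below the median gene in the vehicle library and far above it in the IL-17A library.

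A gene is called measured here if it had at least 50 counts summed over both libraries, which 13534 genes reached. Of these, 702 exceeded their vehicle level by 2-fold or more (5.19%) and 500 fell short of it by 2-fold or more (3.69%), together 8.88%. U90926 ranked 1 by ratio among the 13534, and also 1 by the nearer bound of its interval. By the difference in CPM it ranked 150. The genes ahead of it included Mmp10, at 0.440 CPM with vehicle and 163.6 CPM with IL-17A. Counts of the measured genes in both libraries are plotted next, with U90926 at the upper left.

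**Figure D1:**
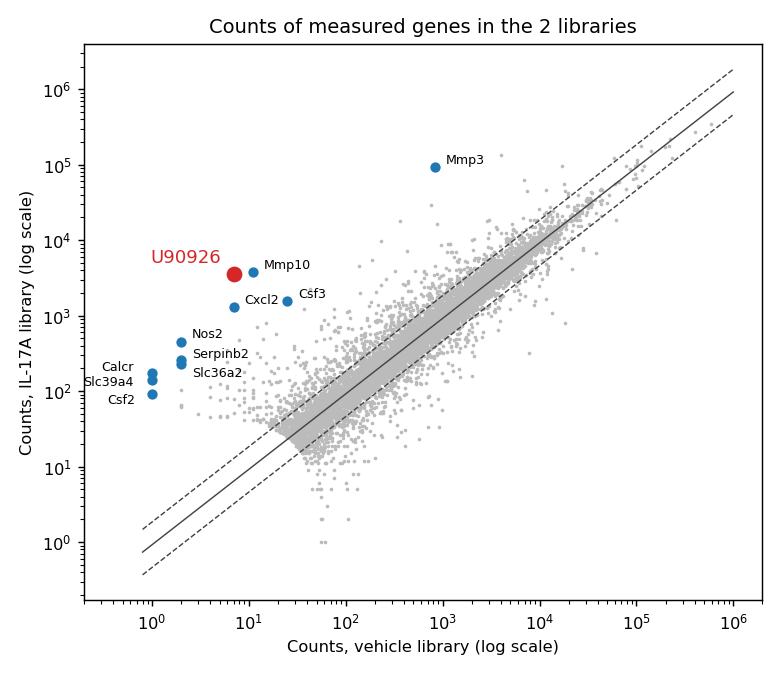
Counts per gene in the vehicle library (x axis, log scale) and the IL-17A library (y axis, log scale) for measured genes, leaving out 3 with a count of 0 in a library; the solid line marks equal scaled levels and the dashed lines 2-fold differences. U90926 (red, 7 and 3533 counts) and the 10 genes nearest to it in ratio (blue) lie above the upper dashed line.

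The combination of a low vehicle count with a high IL-17A count was rare. The other 31 measured genes with at most 7 vehicle counts had a median of 88 IL-17A counts, and the highest of them, the neutrophil chemokine Cxcl2, had 1286. All of these had to be higher with IL-17A, because fewer counts would have left them under the minimum. Seen from the other side, 1301 genes had at least as many IL-17A counts as U90926. The lowest vehicle counts among those were 11 for the stromelysin Mmp10 and 136 for Tnfaip3, a deubiquitinase that restrains NF-kB. Within 10% of the IL-17A count of U90926 lay 316 other genes, whose vehicle counts ran from 11 to 12048 with a median of 3665. Of these genes, 17 (5.38%) exceeded 2-fold, near the share over all measured genes.

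The genes most like U90926 were taken as the 10 with the smallest difference in log2 ratio over the 2 libraries, leaving out predicted gene models. Nearest was Mmp10, a metalloproteinase that cleaves extracellular matrix, with 11 and 3765 counts in vehicle and IL-17A. Its ratio was 372-fold (95% counting interval 208 to 746), which overlaps the interval of U90926, so their order is not resolved by the counts. Nos2, the inducible nitric oxide synthase, had 2 and 451 counts and a ratio of 245-fold (interval 67.5 to 2029.9). Cxcl2, at 7 and 1286 counts, had the same vehicle count as U90926 and a ratio of 199.7-fold (interval 96.6 to 498). These 3 intervals all overlap that of U90926, and each reaches below its lower bound.

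Calcr, the calcitonin receptor, had 1 and 176 counts, and Slc39a4, a zinc importer, had 1 and 140. Serpinb2, which blocks plasminogen activation, had 2 and 260 counts, and the amino acid transporter Slc36a2 had 2 and 229. The growth factor Csf2 had 1 and 93. With 1 or 2 vehicle counts their ratios of 101-fold to 191-fold are loosely fixed, and each interval overlaps that of U90926. Mmp3, another stromelysin, had 839 and 92420 counts and a ratio of 119.7-fold (interval 112 to 128). Csf3, which drives granulocyte production, had 25 and 1553 counts and a ratio of 67.5-fold (interval 45.6 to 105). The intervals of Mmp3 and Csf3 lie wholly below that of U90926. In all, 13 other measured genes had an interval that overlapped it. Per exon length in the IL-17A library, U90926 at 191.9 CPM per kb stood above Mmp10 at 95, Csf3 at 47.8, Cxcl2 at 27.0 and Nos2 at 4.44, and below Mmp3 at 2230.

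**Figure D2:**
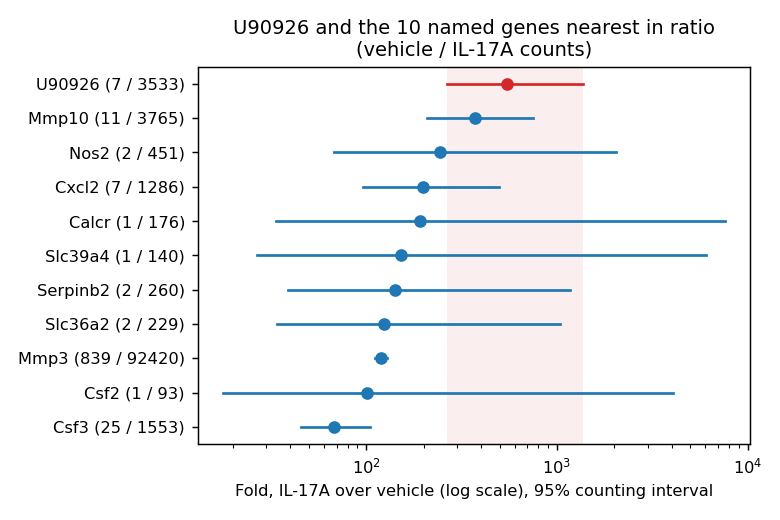
Fold of IL-17A over vehicle (x axis, log scale) with its 95% counting interval for U90926 (red) and the 10 genes nearest in log2 ratio (blue), with vehicle and IL-17A counts beside each name. The shaded band is the U90926 interval, 266 to 1365, which the intervals of Mmp3 and Csf3 do not reach.

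Genes beside U90926 on chromosome 5 mostly differed little between the libraries. RefSeq lists 58 other genes within 1 Mb of either end, of which 22 were matched to rows of the count table and 16 were measured. Among these 16, 3 exceeded 2-fold (18.8%, beside 5.19% over all measured genes) and 0 lay under the lower limit (beside 3.69%). Their median log2 ratio was 0.32, against 0.00 over all measured genes, and 14 of the 16 lay above 0 under each of the 4 scalings tried. No test was made of this small set.

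RefSeq places Gm42112, a long noncoding RNA with no matched row, 1.16 kb beyond the start of U90926, nearer than any gene counted here. The nearest gene with a row, Uso1, a tether for transport vesicles, ends 7.10 kb from U90926 and is read from the plus strand. Its counts were 3476 (vehicle) and 4019 (IL-17A), a log2 ratio of 0.33 (95% counting interval 0.26 to 0.40). The nearest gene with a row on the start side, Ppef2, a phosphatase known from photoreceptors, lies 11.3 kb away and had 0 and 9 counts, too few to be measured. The nearest measured gene thus lay far below the ratio of U90926, and the start side gave no measured value this close.

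Naaa, a lysosomal enzyme that breaks down fatty acid ethanolamides, lies 42.3 kb away and had 346 and 833 counts. It was 2.62-fold higher (95% counting interval 2.31 to 2.97). Cxcl10, an interferon-inducible chemokine for T cells, lies 131 kb away and had 49 and 462 counts, 10.2-fold higher (interval 7.62 to 14.1). Parm1, which encodes a mucin-like membrane protein, lies 586 kb away on the other side and had 925 and 3157 counts, 3.71-fold higher (interval 3.45 to 4). These 3 were the measured genes of the window past 2-fold, and the interval of each lies far below that of U90926.

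Between and around them stood genes within 2-fold. Sdad1, 68.6 kb from U90926, had a log2 ratio of 0.19, and G3bp2, a stress granule protein 72.2 kb away, had 0.18. The pseudogene Gm15710 stood at 0.49. Scarb2, a lysosomal membrane receptor, stood at 0.55, and Nup54, a nuclear pore protein, at -0.09. The kinase gene Cdkl2 stood at -0.50, Thap6 at 0.37 and the ubiquitin ligase gene Rchy1 at 0.09. Cxcl9, another interferon-inducible chemokine, lies between Sdad1 and Cxcl10. It had 11 and 31 counts, and Art3 had 13 and 13, both under the minimum. Genes past 2-fold thus lay scattered along the chromosome among genes inside the limit.

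Within 250 kb, 2 of 11 measured genes were higher (18.2%), and within 2 Mb, 10 of 28 (35.7%), both beside 5.19% over all measured genes. The wider window reaches the neutrophil chemokine cluster, which begins 1304 kb from U90926 with Cxcl2 and goes on with Cxcl1, Cxcl3 and Cxcl5. Cxcl1 had 881 and 16582 counts, Cxcl3 had 6 and 352, and Cxcl5 had 6857 and 61811. Ereg, a growth factor for the epidermal growth factor receptor, had 87 and 715 counts at 1116 kb. These genes were named after their values were seen. Between Parm1 and U90926, the 7 measured genes from Gm7832 to Uso1 were all within 2-fold.

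**Figure D3:**
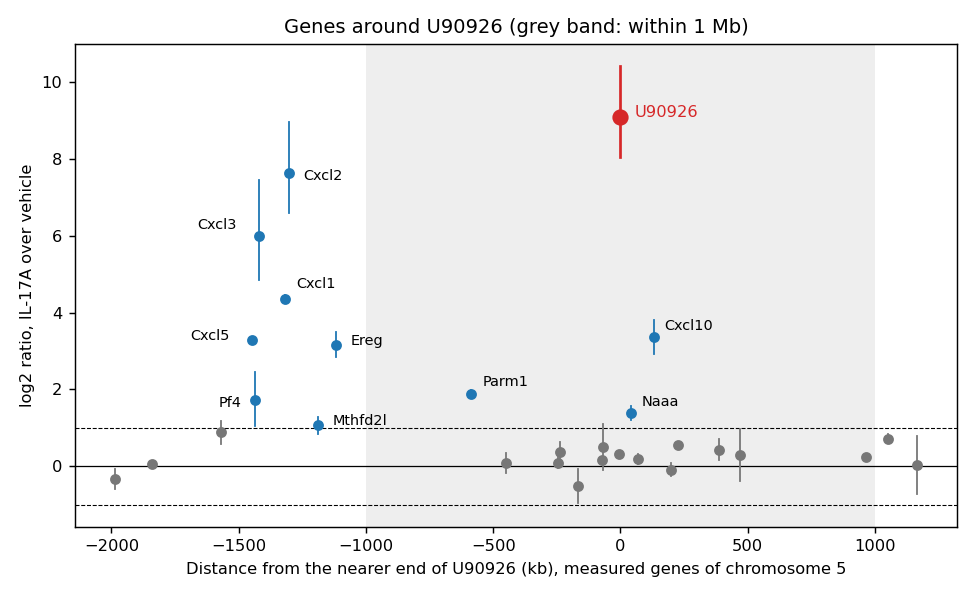
The log2 ratio of IL-17A over vehicle (y axis) with its 95% counting interval for measured genes of chromosome 5 against their distance in kb from the nearer end of U90926 (x axis, negative towards lower coordinates); blue genes are at least 2-fold higher and dashed lines mark 2-fold. U90926 (red, at 9.10) stands alone among its near neighbours, and the chemokine cluster lies to the left of the grey 1 Mb band.

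Among noncoding RNA genes U90926 stood far from the rest. RefSeq types 1029 rows of the count table as noncoding RNA, and 279 of them were measured. Of the 278 besides U90926, 25 exceeded 2-fold (8.99%, beside 5.19% over all measured genes) and 16 lay under the lower limit (5.76%, beside 3.69%). Their median log2 ratio was -0.01. Some of those called were near the minimum, such as 9430062P05Rik with 12 and 42 counts. The medians over all measured genes were 649 and 606 counts. Counting error spreads ratios of low counts in both directions, and the shares were not adjusted for this. The highest of the 278 was Gm16685, named after its values were seen, with 12 and 718 counts and a ratio of 65.0-fold (95% counting interval 37.0 to 126). GENCODE types it as antisense, and with no strand setting given its reads cannot be told apart from those of a gene on the opposite strand.

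Leaving out predicted models, the next was G930009F23Rik with 17 and 187 counts, 12-fold higher (interval 7.27 to 21). AI504432 followed with 10 and 53 counts and 2610028E06Rik with 13 and 62. Then came 9430062P05Rik with 12 and 42, 9330102E08Rik with 38 and 130 and 1700001L05Rik with 30 and 91. In the IL-17A library these 6 reached between 0.414 and 2.88 CPM per kb, and Gm16685 reached 19.6, all far below the 191.9 of U90926.

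At the lower end stood 2810032G03Rik with 148 and 22 counts, and H19, an imprinted RNA that is abundant in fetal tissue, with 38720 and 6763. H19 was 5.27-fold lower (95% counting interval 5.13 to 5.41). C430049B03Rik had 167 and 41 counts, AW011738 had 87 and 26, A730020M07Rik had 73 and 24 and 4732491K20Rik had 46 and 16. With vehicle H19 stood at 629 CPM per kb against 0.350 for U90926, and with IL-17A at 119 against 191.9, so their order turned between the libraries.

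**Figure D4:**
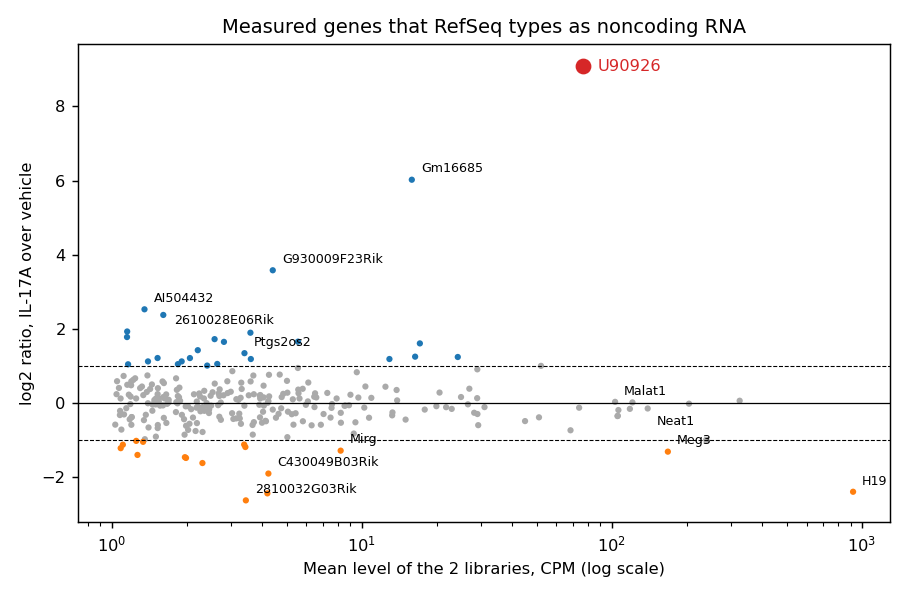
The log2 ratio of IL-17A over vehicle (y axis) against the mean level of the libraries in CPM (x axis, log scale) for the 279 measured genes that RefSeq types as noncoding RNA; blue genes are at least 2-fold higher, orange at least 2-fold lower and dashed lines mark 2-fold. U90926 (red) stands at 9.10 and the next, Gm16685, at 6.02.

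Noncoding RNAs with a known link to inflammation did not share the ratio of U90926. Of 19 symbols on a list of them, 10 were measured, 1 exceeded 2-fold (10%, beside 5.19%) and 0 fell below the lower limit. Their median on the log2 scale was -0.22. The 1 was Ptgs2os2, also known as lincRNA-Cox2, with 48 and 112 counts and a ratio of 2.54-fold. Malat1 and Neat1, abundant RNAs of the nucleus, had 2549 and 2393 counts and 3657 and 3032 counts. Mir155hg, the host of an inflammatory microRNA, had 5 and 20 counts, under the minimum. Also under it were Ptgs2os with 4 and 18 counts and AW112010 with 1 and 9. With a minimum of 10 counts, 4 of the list exceeded 2-fold, 0 fell below the lower limit and the median was -0.01. Of 31 other well-known noncoding RNAs, 22 were measured, 0 exceeded 2-fold and 3 lay under the lower limit (13.6%, beside 3.69%), with a median of -0.26. The 3 were H19, Meg3 with 5971 and 2208 counts, and Mirg with 292 and 110, all imprinted genes.

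Genes listed for the macrophage response to Toll-like receptor ligands, the setting in which U90926 is known, were mostly higher in the IL-17A library. Bulk counts do not show which cells made these RNAs or through which receptor, and neither was tested. The list held 30 symbols, among them Acod1 and its older name Irg1. Of these, 25 were measured and 23 exceeded 2-fold (92%, beside 5.19%). The list was chosen with earlier results of these data known, so this share is a description. Members with few vehicle counts, such as Nos2, Csf2, Il1a and Acod1, reached the minimum of 50 only through the IL-17A library. They had to be higher to be measured, so the share and the median are partly fixed by the minimum. None of the 25 was 2-fold lower, and their median on the log2 scale was 3.68, below the 9.10 of U90926. Members with the highest ratios were Nos2, Cxcl2, Csf2 and Csf3, given above with their counts, and Cxcl3. Il1a had 0 and 171 counts, the iron-binding protein gene Lcn2 had 362 and 17987, and Acod1, which makes itaconate in activated macrophages, had 6 and 241. Nfkbiz and Vcam1, named after their values were seen, were within 2-fold with log2 ratios of 0.98 and 0.85.

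Adipocyte differentiation genes went both ways. The list held 23 symbols, among them Dlk1 and its other name Pref1. It mixes adipocyte genes with this preadipocyte factor, so its shares and median are not a measure of differentiation. Of its 17 measured members, 2 exceeded 2-fold (11.8%, beside 5.19%) and 5 lay under the lower limit (29.4%, beside 3.69%). Their median on the log2 scale was -0.50. The lower members were Pparg, the central adipogenic transcription factor, with 285 and 47 counts, the lipid droplet gene Plin4 with 53 and 13, Cebpa with 1436 and 566, the preadipocyte factor Dlk1 with 3871 and 1629, and the fatty acid transporter Cd36 with 283 and 122. Cebpd was higher with 2312 and 5259 counts. Fabp4, a fatty acid carrier, was at 1.03 on the log2 scale and inside the 2-fold limit at 0.96 and 0.99 under total-count and upper-quartile scaling. Whether U90926 has a part in these values was not tested.

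**Figure D5:**
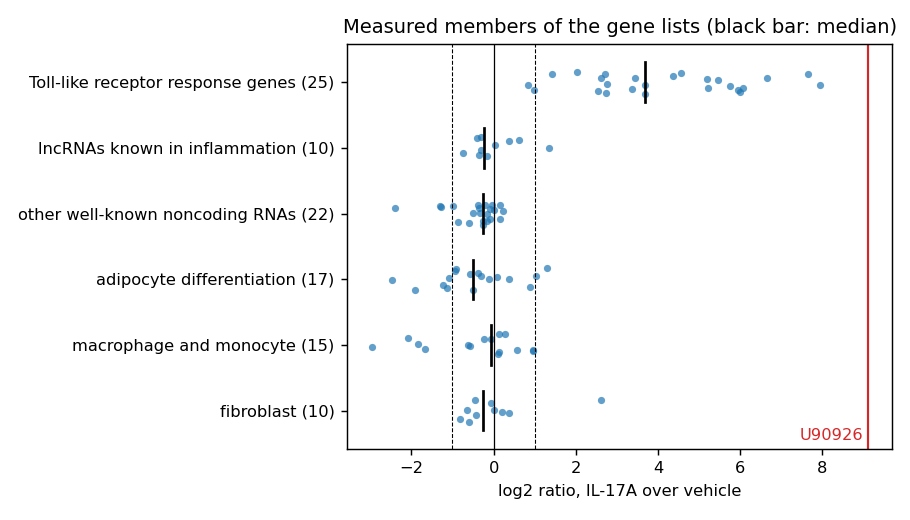
The log2 ratio of IL-17A over vehicle (x axis) for each measured member (points) of 6 gene lists, with the number measured in parentheses, the median as a black bar and dashed lines at 2-fold. The red line is U90926 at 9.10; the Toll-like receptor list has its median at 3.68 and the macrophage marker list at -0.07.

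Since U90926 is known from macrophages, markers of other cell types were read beside it. The fibroblast markers Col1a1, Col1a2, Col3a1, Pdgfra, Pdgfrb, Dcn, Lum, Thy1, Vim and Fn1 were all measured, with a summed level of 60376 CPM with vehicle and 45127 CPM with IL-17A. Dcn, a matrix proteoglycan, went the other way, with 17022 and 96320 counts, and without it the sum was 59695 and 40941 CPM. The other 9 were all within 2-fold. On the log2 scale 3 of them lay above 0 (Pdgfrb at 0.38, Lum at 0.19 and Thy1 at 0.00) and 6 below. Of 16 macrophage and monocyte markers, 16 had counts in each library and 15 were measured, led by Lyz2 with 3836 and 5227 counts. Csf1r, the macrophage growth factor receptor, had 408 and 402 counts, and Adgre1, which encodes F4/80, had 194 and 170. The summed level of the 16 was 277 CPM with vehicle and 322 CPM with IL-17A. Without Lyz2, a sum added after seeing the data, it was 124 and 94.8 CPM, so the rise of the sum rests on Lyz2. Of the 15 measured, 0 exceeded 2-fold and 4 lay under the lower limit (26.7%, beside 3.69%). The 4 were Cx3cr1 with 76 and 9 counts, C1qa with 314 and 81, C1qb with 327 and 95, and C1qc with 362 and 78. On the log2 scale 7 of the 15 lay above 0 and 8 below. Cd14 with 201 and 360 counts and Itgam with 47 and 84 were each at 0.96, just inside the 2-fold limit. Both libraries thus held macrophage transcripts, and their part in the U90926 counts was not tested.

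Of 9 neutrophil marker symbols, 5 had a row and 1, Camp, was measured. The 5 summed to 4 and 77 counts, of which Camp gave 0 and 64, S100a8 gave 2 and 11 and S100a9 gave 2 and 2. The rise of the sum thus rests mainly on Camp. Retnlg and Cxcr2 had 0 counts in both libraries. The T cell genes Cd3d, Cd3e and Cd3g had 0 counts in both libraries, while Cd4 had 7 and 0 and the B cell gene Cd79b had 1 and 0. Keratinocyte markers summed to 82 and 95 counts with Krt10 the most abundant, endothelial markers to 174 and 150 with Cdh5, and melanocyte and Schwann cell markers to 302 and 301 with Sox10. The part of these cell types in the U90926 counts was not tested.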

How the data were processed

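The table the authors deposited gives unnormalized read counts, with gene symbols as row names and a column for each of the 2 libraries. STAR, featureCounts and the mm10 build appear in the submitters' processing notes. Their versions, the annotation, the strand setting and the handling of multiply aligned reads were not given in the sources used here. Of 19674 rows, 89.0% matched RefSeq on GRCm38.p6 by symbol or unique synonym. Of these rows, 21 with date-like symbols were left unnamed.

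TMM factors from edgeR 4.0.16 (R 4.3.3) scaled the library sizes, with values of 1.02 for vehicle and 0.977 for IL-17A. With 1 library per group no test could be fitted, so ratios of scaled counts are given with exact 95% Clopper-Pearson counting intervals (scipy 1.17.1), for genes with at least 50 summed counts and a 2-fold limit. A count of 0 was set to a floor of 3 counts. The ratio script was tested on simulated data.

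The gene, the lists and the rules were chosen with earlier results of these data known. Named are U90926, measured neighbours within 250 kb or past 2-fold within 1 Mb, the 10 nearest ratios, the 6 highest and 6 lowest noncoding RNAs, up to 8 members past 2-fold per list and the leading marker of each other cell type. All other genes printed (the chemokine cluster, further list members and further markers) were picked with their values in view. The alternatives were other scalings, a prior count, other minimums, fold limits, ranks and windows.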

Additional observations from a re-analysis of the deposited data

How the results depend on the processing

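U90926 kept rank 1 and a log2 ratio within its counting interval under total-count, upper-quartile and DESeq2 scaling (9.03, 9.06 and 9.10) and with a prior count of 2 (8.72). It kept rank 1 with minimums of 10, 200 and 1 summed counts, and ranked 150 by the difference in CPM. A change of scaling shifts all log2 ratios equally, so it could not change the rank. The minimum of 200 could only remove other genes, so that rank was fixed as well. No scaling moved the median of measured genes by more than 0.07 on the log2 scale. Alternative values of ranks, ratios and counts numbered 145. Of these, 111 were within 1.5 times the reported one (or, for the ratio, within its interval) and 34 moved further.

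Counts followed the limits by construction. Other fold limits keep the 13534 measured genes and the 278 noncoding RNAs besides U90926. For other minimums the number of measured genes is not given, so those counts cannot be read as shares. With a minimum of 10, 1090 genes were higher and 955 lower, noncoding RNAs besides U90926 87 and 72, and 4 inflammation-linked noncoding RNAs were higher. With no minimum these were 1347, 1148, 121, 104 and 4, and 5 neighbours were higher. A minimum of 200 gave 275 genes lower, noncoding RNAs 7 and 5, and 0 inflammation-linked ones higher. At 1.5-fold the table gave 1364 and 1117, noncoding RNAs 40 and 39, inflammation-linked ones 2 and 1, and 6 well-known noncoding RNAs were lower. At 3-fold they were 340 and 219, 11 and 5, 0 inflammation-linked ones higher and 1 well-known one lower, with adipocyte genes 0 higher and 2 lower. Total-count and upper-quartile scaling left 1 adipocyte gene higher, since Fabp4 fell inside the limit, and 4 well-known noncoding RNAs lower, since Rian passed it (-1.06 and -1.03). The 2 Mb window held 10 higher neighbours of 28 measured (35.7%, beside 5.19% over all measured genes). The long noncoding types of GENCODE M21, chosen after seeing the data and without U90926, held 391 measured genes. Of these, 32 were higher (8.18%, beside 5.19%) and 20 lower (5.12%, beside 3.69%).

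No paired analysis was possible because each group held 1 library, and no library was left out. The 7 vehicle counts of U90926 set the width of its interval.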
